A study of Mus musculus with 7 samples.

Results

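The genes described here are 36 markers of the dividing cell, chosen as a list by name, and all 36 were found among the 40873 genes analysed in the deposited count table. They comprise 6 regulators of entry into S phase (the G1/S regulators), 13 genes of DNA replication and 17 genes of mitosis. The counts come from poly(A) RNA of choroid plexus taken from the lateral ventricles of wild-type CD-1 mouse embryos, an outbred stock, at E15.5 (embryonic days). There were 3 libraries of embryos given red blood cells and 4 of controls given saline, all taken 24 h later and each made from pooled tissue. The red blood cells were washed cells from the blood of an E14.5 donor litter, and both groups carry the same batch label. The labels call the libraries biological replicates without saying how many embryos or litters each pool held, so the p-values measure the spread between these pools.

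The choroid plexus is a vascularised sheet of secretory epithelium around a stromal core, and in the embryo both layers are still growing. A cell commits to division when D-type and E-type cyclins with their kinases release E2F transcription factors, which switch on genes that load the MCM helicase onto DNA, make deoxynucleotides and copy the genome. Mitosis genes follow later in the cycle, when the DREAM repressor complex gives way to activators such as B-MYB and FOXM1, which act with NF-Y at a promoter element called CHR (cell cycle genes homology region). Replication and mitosis transcripts therefore mark successive stretches of one cycle, and in a bulk library a lower level can mean fewer cycling cells or less of the transcript in each, which cannot be told apart here.

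Promoter sequences, which were not used to choose the genes, were searched for the elements of these routes. RefSeq promoter windows (GRCm38.p6, 250 bases before to 50 after the start) were found for 28 of the 36 genes. Both strands were searched for the E2F box (TTTCCCGC or TTTCGCGC or TTTGCCGC or TTTGGCGC), for the CHR element (TTTGAA or TTCGAA) and for the NF-Y box (CCAAT). Matches of an E2F box on opposite strands can overlap. An E2F box was present in 6 of 11 replication genes with a window (54.5%) and in 1 of 14 mitosis genes (7.14%, Cdk1), against 4.45% of 11525 tested genes with a window. A CHR element was present in 12 of 14 mitosis genes (85.7%) and in 2 of 11 replication genes (18.2%, Mcm2 and Mcm7), against 16.3% of tested genes. All 14 mitosis genes with a window had an NF-Y box, as did 8 of 11 replication genes (72.7%), against 42.6% of tested genes. Of the 6 G1/S regulators, 3 had a window (Ccnd3, Ccne1 and E2f1). Among these 3, 0 had an E2F box, 0 had a CHR element and 1 had an NF-Y box (33.3%, Ccnd3).

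The replication genes Mcm3, Mcm5, Mcm6 and Cdc6 are shown for their E2F boxes. Motifs are in capitals, each strand reads 5′ to 3′ along the gene, and no stretch goes beyond 30 bases after the start, so that a further E2F box of Mcm3 is not printed. On GRCm38.p6 the stretches are chr1:20820283-20820444 (minus strand) for Mcm3, chr8:75109341-75109534 (plus strand) for Mcm5, chr1:128359700-128359830 (minus strand) for Mcm6 and chr11:98907998-98908035 (plus strand) for Cdc6.
Mcm3: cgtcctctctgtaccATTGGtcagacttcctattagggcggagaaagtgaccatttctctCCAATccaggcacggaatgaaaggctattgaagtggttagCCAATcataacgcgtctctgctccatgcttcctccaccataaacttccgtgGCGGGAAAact
Mcm5: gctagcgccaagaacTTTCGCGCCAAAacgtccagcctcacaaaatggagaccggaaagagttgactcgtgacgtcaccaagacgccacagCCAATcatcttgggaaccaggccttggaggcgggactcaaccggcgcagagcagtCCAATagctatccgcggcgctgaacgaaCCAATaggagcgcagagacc
Mcm6: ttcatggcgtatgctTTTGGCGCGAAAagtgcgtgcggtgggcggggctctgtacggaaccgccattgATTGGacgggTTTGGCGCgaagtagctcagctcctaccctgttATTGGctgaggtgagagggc
Cdc6: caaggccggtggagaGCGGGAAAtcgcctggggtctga

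The mitosis genes Ccnb2, Cdc20, Cenpf and Kif23 are shown for the pairing of NF-Y boxes with a CHR element, in capitals as before. Their stretches are chr9:70421530-70421736 for Ccnb2, chr4:118437332-118437411 for Cdc20, chr1:189688064-189688233 for Cenpf and chr9:61946777-61946821 for Kif23, all on the minus strand of GRCm38.p6.
Ccnb2: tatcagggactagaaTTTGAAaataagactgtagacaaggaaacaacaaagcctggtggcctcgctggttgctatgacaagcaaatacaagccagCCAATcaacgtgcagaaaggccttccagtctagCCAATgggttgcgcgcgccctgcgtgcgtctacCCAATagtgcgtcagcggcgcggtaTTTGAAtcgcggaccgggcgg
Cdc20: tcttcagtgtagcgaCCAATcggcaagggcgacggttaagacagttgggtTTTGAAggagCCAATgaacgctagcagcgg
Cenpf: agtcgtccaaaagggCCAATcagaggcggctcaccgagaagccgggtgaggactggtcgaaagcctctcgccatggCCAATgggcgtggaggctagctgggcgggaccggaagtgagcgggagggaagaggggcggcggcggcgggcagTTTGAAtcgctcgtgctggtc
Kif23: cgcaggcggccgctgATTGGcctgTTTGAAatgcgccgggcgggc

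Further genes of each stage, listed from textbook knowledge, were searched in the same way. Among 24 other replication genes, 8 of 19 with a window had an E2F box (42.1%) and 5 had a CHR element (26.3%). Among 28 other mitosis genes, 0 of 24 with a window had an E2F box and 16 had a CHR element (66.7%). A match is a run of letters and no evidence of binding, and a window without a match may hold a variant of the motif.

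**Figure D1:**
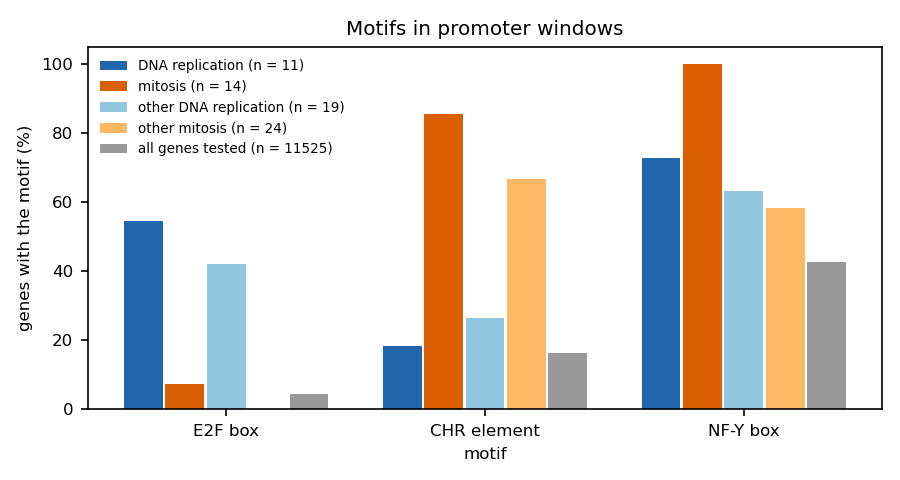
Share of genes (%) whose RefSeq promoter window holds an E2F box, a CHR element or an NF-Y box, for 5 sets of genes, with the number of genes that have a window in the legend. E2F boxes were found in 54.5% of replication genes and 7.14% of mitosis genes, and CHR elements in 18.2% and 85.7%.

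Total counts per library ran from 4393860 to 8386928, and the 36 genes took 0.214% to 0.255% of them, with all 36 passing the filter on low counts. Levels of single genes are in CPM, the usual depth-scaled count unit, on TMM-scaled library sizes. Levels summed over a list of markers, and the conversion of 3 counts, use total counts without TMM scaling. A count of 3 corresponds to 0.358 to 0.683 CPM, well below the lowest mean of a member. Epithelial markers (Ttr, Otx2, Clic6, Kcne2, Aqp1, Folr1, Kl and Slc4a5) were all detected, with summed levels of 17167 to 18692 CPM with red blood cells and 17366 to 22235 CPM with saline. Of the 14869 genes tested, 9 passed the edgeR quasi-likelihood test at an adjusted p of 0.05, which is 0.0605%.

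After red blood cells, no S-phase or mitosis gene passed that test: 0 of 36 in edgeR, against the background of 0.0605%, and 0 of 36 in DESeq2 and in limma-voom, which called 1.41% and 0.0538% of the genes they tested. The lowest adjusted p among them was 0.253, for E2f1. At an unadjusted p under 0.05 there were 2 of 36 (E2f1 lower and Ccna2 higher), where 9.54% of all tested genes reached that level. Log2 fold changes (red blood cells minus saline) lay above 0 for 28 of the 36, against 49.9% of all tested genes, but between only -0.50 and 0.31. The median was 0.13 for the 13 replication genes, 0.12 for the 17 mitosis genes and -0.01 for the 6 G1/S regulators, against 0.00 for all tested genes. Every red blood cell library lay above every saline library for 2 members, Pcna and Rrm1 (4.96% of tested genes), and below for 0 (4.63% of tested genes).

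**Figure D2:**
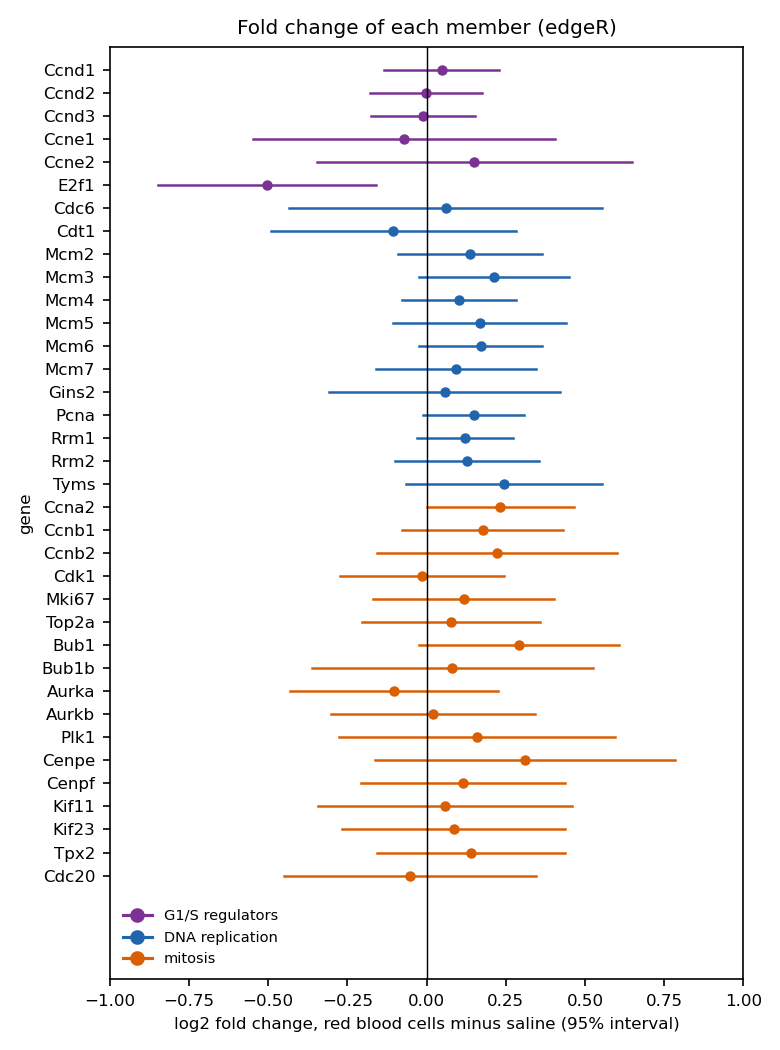
Log2 fold change of each member, red blood cells minus saline, from the edgeR fit (points) with its 95% interval (lines), coloured by role. The estimates lie between -0.50 and 0.31, and the intervals of all members but E2f1 and Ccna2 include 0.

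The entry into S phase is set by the G1/S regulators. In the following, the treated pools are the red blood cell libraries. E2f1, which encodes an activating E2F factor, had 21.1, 14.2 and 18.5 CPM in the treated pools and 27.6, 24.1, 28.7 and 20.8 CPM in the saline pools. Red blood cell library 2 was the lowest, and red blood cell library 1 lay just above saline library 4, so the groups overlapped. The mean was 17.9 ± 3.47 CPM against 25.3 ± 3.58 CPM (SD, n = 3 red blood cell and n = 4 saline libraries, as in all means that follow), with a log2 fold change of -0.50 ± 0.16 (SE) and an edgeR adjusted p of 0.253. This was the largest difference among the 36 genes and kept its sign in all 16 alternatives, from -0.64 to -0.36, with adjusted p from 0.151 to 0.642. E2f1 lies on chromosome 2 of GRCm39, from 154401320 to 154411812 on the minus strand.

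The D-type cyclin genes had fitted fold changes near 1. Ccnd2, a D-type cyclin gene, had 521, 484 and 530 CPM in the treated pools and 569, 488, 539 and 453 CPM in the saline pools. Its log2 fold change was 0.00 ± 0.08 (SE), and the 95% interval of its fold change ran from 0.883 to 1.13. Ccnd3 had 200 ± 14.99 CPM against 202 ± 13.8 CPM (fold change interval 0.886 to 1.11), and Ccnd1 had 135 ± 15.52 against 131 ± 4.39 CPM (0.912 to 1.17). The E-type cyclin genes, which start S phase, were among the least abundant members. Ccne1 had 6.69 ± 0.646 CPM in the treated pools and 7.16 ± 1.62 CPM in the saline pools, and Ccne2 had 8.15 ± 2.21 and 7.29 ± 1.28 CPM (SD, n = 3 and n = 4). Their intervals were wide, from 0.683 to 1.32 for Ccne1 and from 0.787 to 1.57 for Ccne2. Part of the exons of Ccnd1 (61.6%) and Ccne2 (53.2%) overlap genes on the opposite strand (LTO1 and Ints8), so the split of reads there is uncertain. The same holds for smaller parts of Ccnd3 (14.3%), Gins2 (11.4%), Ccna2 (11.2%), Mcm7 (8.44%), Aurka (8.27%) and Cdc20 (2.97%).

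Corrected for exon length, Ccnd3, Ccnd2 and Pcna had the highest mean levels of the 36 genes in the saline libraries. Ccnd3 had 80.4 ± 5.50 CPM per kilobase of exon, Ccnd2 had 62.1 ± 6.28 and Pcna 56.2 ± 2.59 (SD, n = 4). The ranges of Ccnd2 and Pcna over the saline libraries overlapped. Ccnd1 followed with 34.7 ± 1.17, Top2a with 28.2 ± 3.25, and Rrm1 and Cdk1 with 21.9 ± 0.924 and 21.5 ± 3.198, which did not differ beyond their spread. At the other end were Cdc6 with 1.45 ± 0.273, Ccne2 with 2.24 ± 0.394 and Tyms with 2.58 ± 0.354 CPM per kilobase. These lengths are unions of all annotated exons, so a long unused exon lowers the value.

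Origins of replication are licensed by Cdc6 and Cdt1, which load the 6 subunits of the MCM2-7 helicase. All 6 helicase genes had a positive log2 fold change, from 0.09 for Mcm7 to 0.21 for Mcm3, and 0 passed the test. Mcm3 had 41.1, 38.6 and 41.8 CPM in the treated pools and 33.1, 38.8, 29.8 and 38.7 CPM in the saline pools. Its log2 fold change was 0.21 ± 0.11 (SE, edgeR adjusted p = 0.586). Saline libraries 1 and 3 were the low ones, and saline libraries 2 and 4 lay among the red blood cell values. Mcm6 had 64.9 ± 6.08 against 57.6 ± 3.92 CPM and Mcm2 had 55.5 ± 5.87 against 50.7 ± 5.34 CPM. The remaining helicase genes had 30.7 ± 3.203 against 27.2 ± 3.63 CPM for Mcm5, 53.5 ± 1.53 against 49.8 ± 3.58 CPM for Mcm4 and 47.1 ± 5.37 against 44.2 ± 5.33 CPM for Mcm7. The loaders themselves had 7.601 ± 1.63 against 7.30 ± 1.37 CPM (Cdc6) and 16.2 ± 1.88 against 17.5 ± 3.54 CPM (Cdt1), Cdt1 being the only replication gene below 0 (log2 fold change -0.10 ± 0.18, SE). Gins2, a subunit of the GINS complex that completes the active helicase, had 9.62 ± 0.410 and 9.29 ± 1.16 CPM.

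Among the genes that act at the fork and in nucleotide supply, Pcna and Rrm1 were the members whose groups did not overlap. They were 2 of 36 members, near the 4.96% of all tested genes that lay above without overlap. Pcna, the sliding clamp of the replicative polymerases, had 81.7, 77.9 and 75.7 CPM in the treated pools and 70.5, 66.4, 72.6 and 73.9 CPM in the saline pools. Its fold change was 1.11, with a 95% interval of 0.993 to 1.24 (edgeR adjusted p = 0.568). Rrm1, the large subunit of ribonucleotide reductase, had 96.1, 93.5 and 95.8 CPM against 88.2, 91.5, 82.5 and 87.8 CPM, a fold change of 1.09 with an interval of 0.979 to 1.21 (edgeR adjusted p = 0.646). In both genes the lowest red blood cell library (library 3 for Pcna, library 2 for Rrm1) lay just above the highest saline library (library 4 and library 2). On GRCm39 Pcna spans 132091206 to 132095100 of chromosome 2 (minus strand) and Rrm1 102090902 to 102118978 of chromosome 7 (plus strand). Rrm2, the small subunit that limits the enzyme in S phase, had 36.3 ± 3.15 against 33.4 ± 3.02 CPM and overlapped. Tyms, which makes thymidylate, had 22.7 ± 2.58 against 19.2 ± 2.63 CPM (SD, n = 3 and n = 4), the largest log2 fold change of the replication genes at 0.24 ± 0.14 (SE, edgeR adjusted p = 0.656).

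**Figure D3:**
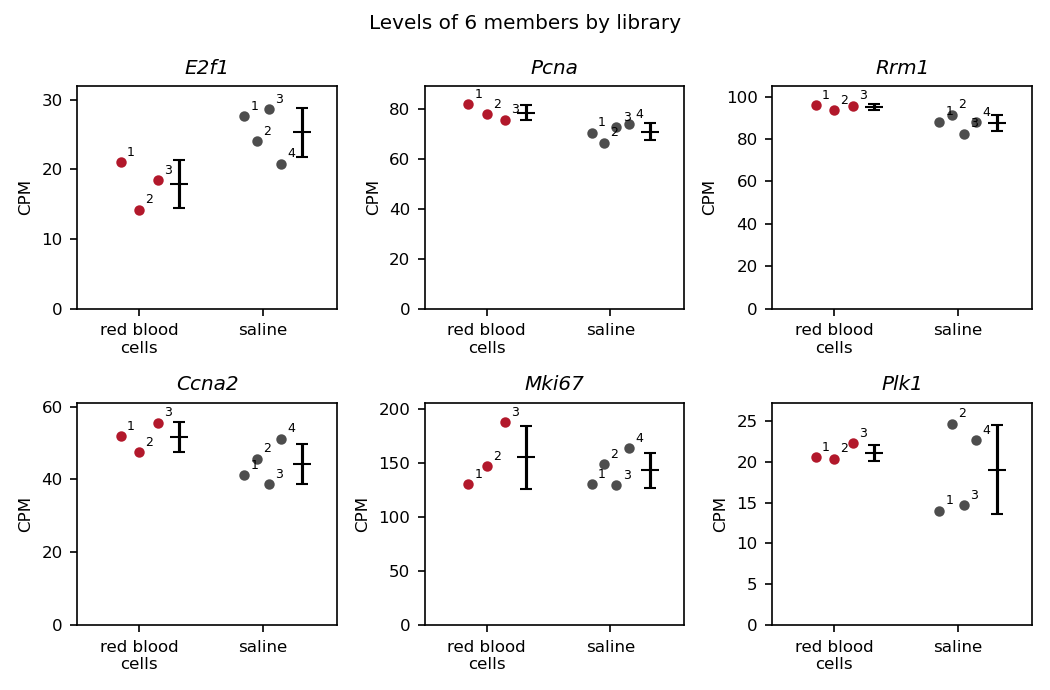
Levels in CPM of E2f1, Pcna, Rrm1, Ccna2, Mki67 and Plk1 in each library (points, numbered by replicate), with the group mean and SD as a black bar. Pcna and Rrm1 lie higher with red blood cells without overlap, as did 4.96% of all tested genes. Plk1 in saline splits into libraries 1 and 3 at 14.0 and 14.7 CPM and libraries 2 and 4 at 22.7 and 24.7 CPM.

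The later cyclins and their kinase act between S phase and mitosis. Ccna2, the A-type cyclin gene of S and G2 phase, had 52.0, 47.5 and 55.6 CPM in the treated pools and 41.2, 45.7, 38.6 and 51.2 CPM in the saline pools. Only saline library 4 lay within the red blood cell range. Its log2 fold change was 0.23 ± 0.11 (SE, unadjusted p = 0.0488, edgeR adjusted p = 0.519), and it lay between 0.18 and 0.37 in the 16 alternatives. Ccnb1 had 41.0 ± 5.24 against 36.3 ± 4.03 CPM and Ccnb2, the other mitotic B-type cyclin gene listed, 26.1 ± 4.01 against 22.4 ± 4.91 CPM. Cdk1, the kinase they activate, had 92.1 ± 8.94 against 93.3 ± 13.9 CPM (log2 fold change -0.02 ± 0.12, SE).

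The widely used proliferation markers did not separate the groups. Mki67, which encodes the Ki-67 protein of cycling cells, had 131, 147 and 188 CPM in the treated pools and 131, 149, 129 and 164 CPM in the saline pools. Its fold change was 1.085 with a 95% interval of 0.889 to 1.32 (edgeR adjusted p = 0.868). Top2a, the topoisomerase that disentangles sister chromatids, had 152, 129 and 185 CPM against 129, 160, 137 and 164 CPM, with an interval of 0.868 to 1.28. In both genes red blood cell library 3 was the highest of all and the other red blood cell libraries lay within the saline range.

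Among kinases and checkpoint genes of mitosis, Plk1, Bub1b and Cdc20 varied among the saline libraries. Plk1, the polo kinase that drives mitotic entry, had 20.6, 20.4 and 22.3 CPM in the treated pools and 14.0, 24.7, 14.7 and 22.7 CPM in the saline pools. Its highest saline library was 1.76 times its lowest, where the fitted fold change between groups was 1.12. The spindle checkpoint gene Bub1b had 24.4, 40.8, 25.4 and 37.5 CPM in the saline libraries (highest 1.67 times the lowest) and a mean of 33.7 ± 4.85 CPM with red blood cells. Cdc20, the activator of the anaphase-promoting complex, had 27.8, 42.5, 29.2 and 41.7 CPM with saline and 38.2, 27.8 and 35.3 CPM with red blood cells. In each of these genes saline libraries 1 and 3 were low and saline libraries 2 and 4 high.

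Bub1, a partner kinase in the checkpoint, had 22.1 ± 3.08 against 18.2 ± 2.64 CPM (log2 fold change 0.29 ± 0.14, SE, edgeR adjusted p = 0.574). Aurka, the kinase of the spindle poles, had 19.4 ± 1.28 against 20.96 ± 3.86 CPM, and Aurkb, the kinase of the chromosomal passenger complex, 16.1 ± 0.800 against 15.96 ± 2.504 CPM (SD, n = 3 and n = 4).

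Motors and spindle genes were led by red blood cell library 3. Cenpe, a kinetochore motor, had 46.3, 33.7 and 60.5 CPM in the treated pools and 30.4, 40.8, 34.7 and 45.6 CPM in the saline pools. It had the largest positive log2 fold change of the 36 genes, 0.31 ± 0.21 (SE, edgeR adjusted p = 0.730), but red blood cell library 2 was below 3 of the 4 saline libraries. Kif11, the motor that separates spindle poles, had 35.5, 34.6 and 55.6 CPM against 35.0, 44.4, 36.01 and 45.4 CPM, and without red blood cell library 3 its log2 fold change was -0.19 in place of 0.06. Cenpf (78.0 ± 16.01 against 71.9 ± 9.29 CPM), Kif23 (29.0 ± 5.86 against 27.4 ± 4.62 CPM) and Tpx2 (57.2 ± 9.44 against 52.0 ± 7.56 CPM) showed the same library on top.

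**Figure D4:**
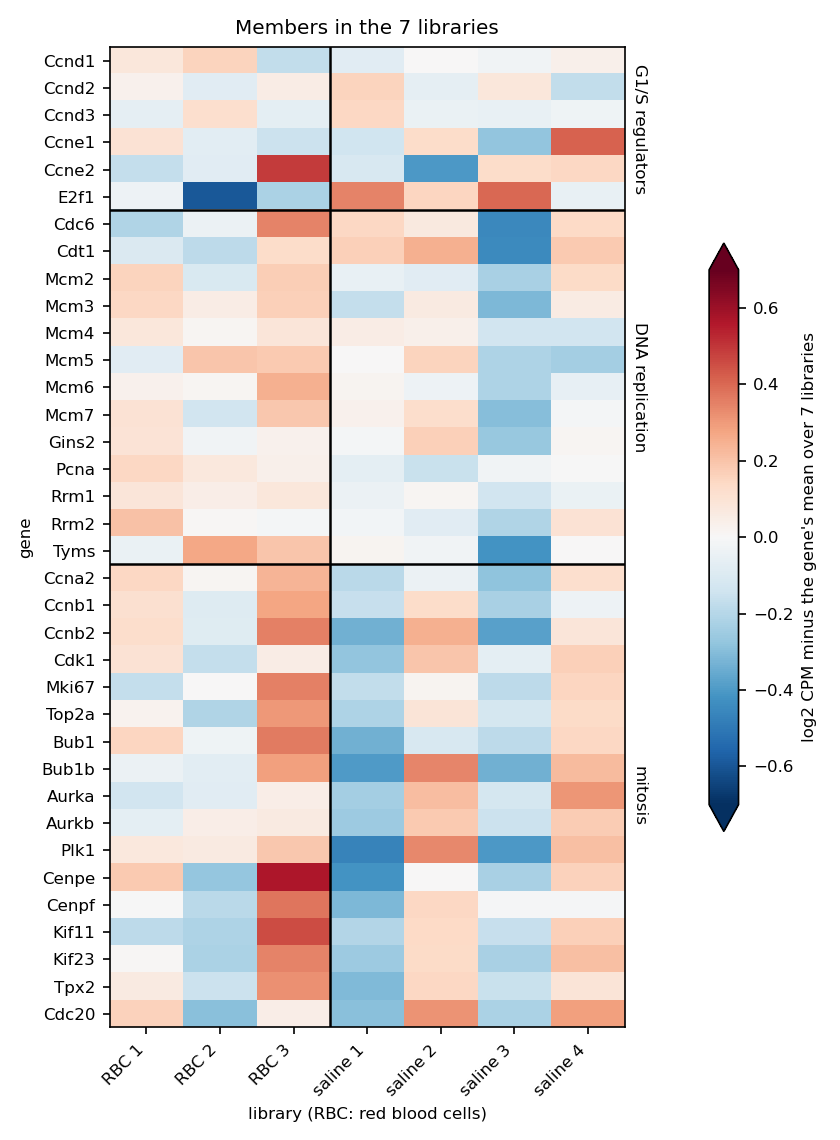
Each cell is a gene's log2 CPM in a library minus its mean over the 7 libraries (colour scale ends at -0.7 and 0.7), with genes grouped by role and red blood cell libraries left of the vertical line. Mitosis genes form bands by library, high in red blood cell library 3 and saline libraries 2 and 4 and low in saline libraries 1 and 3.

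The contrast between replication and mitosis genes lay between libraries more than between groups. For each library the log2 CPM of a gene minus its mean over the 7 libraries was averaged over the genes of a role. The mitosis level was 0.03, -0.11 and 0.27 in treated pools 1 to 3, and in the saline pools, by number, it was -0.28, 0.15, -0.20 and 0.15. The replication level was 0.05, 0.01 and 0.14 in the treated pools and 0.01, 0.04, -0.26 and 0.01 in the saline pools. Saline library 3 was thus low in both roles, while saline library 1 was the lowest of all in mitosis genes and near the average in replication genes. The replication level minus the mitosis level was 0.29 in saline library 1 and lay between -0.14 and 0.13 in the other libraries. Between the groups this difference was 0.01 (means 0.00 ± 0.13 and 0.00 ± 0.20, SD, n = 3 and n = 4), against a range of 0.43 over the saline libraries.

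**Figure D5:**
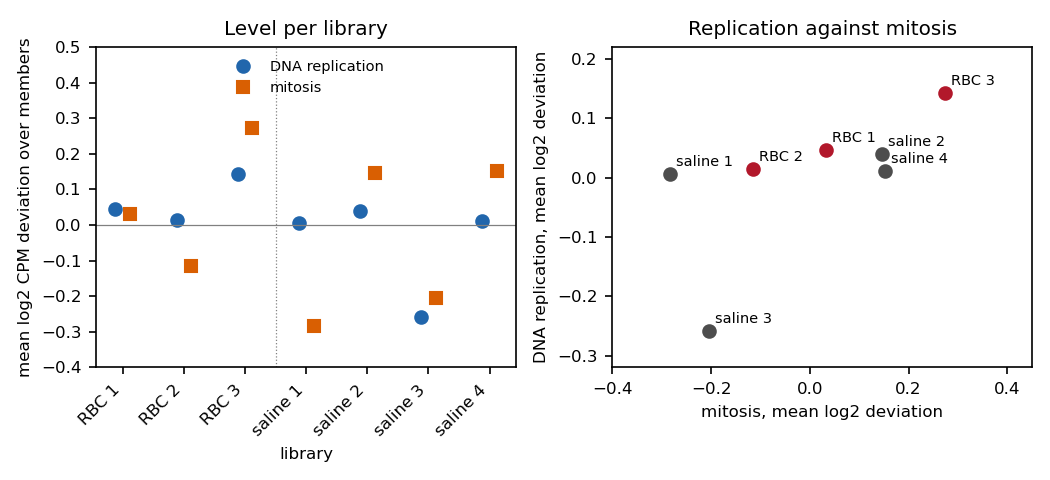
Left, mean log2 CPM deviation of the 13 replication genes (circles) and the 17 mitosis genes (squares) in each library. Right, the same levels against each other, with red blood cell libraries in red and saline libraries in grey: saline library 1 has a mitosis level of -0.28 at a replication level of 0.01, and saline library 3 is low in both (-0.20 and -0.26).

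Pairs of libraries, chosen after their values were seen, were also compared gene by gene. All 17 mitosis genes were higher in saline library 2 than in saline library 1, with a median difference of 0.44 on the log2 scale, while 6 of the 13 replication genes were (46.2%), and 49.9% of all tested genes. Between saline libraries 4 and 1 the counts were again 17 of 17 and 6 of 13. Compared with saline library 3, saline library 2 was higher in 17 of 17 mitosis genes and in 12 of 13 replication genes. Red blood cell library 3 exceeded red blood cell library 2 in all 17 mitosis genes (median 0.37) and in 9 of 13 replication genes. Of the 17 mitosis genes, 12 had their lowest value in saline library 1, 4 in saline library 3 and 1 in red blood cell library 2. Of the 13 replication genes, 11 had their lowest value in saline library 3 and 0 in saline library 1.

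The small positive median of the mitosis genes rested on single libraries. Without red blood cell library 3 the median log2 fold change was -0.03 in place of 0.12, and 7 of 17 mitosis genes lay above 0 in place of 14. Without saline library 1 it was 0.03 with 11 of 17 above 0, without saline library 3 it was 0.06, and without red blood cell library 2 and saline library 4 it was 0.25 with 17 of 17 above 0. The median of the replication genes moved less, from 0.09 without saline library 3 to 0.18 without red blood cell library 2 and saline library 4, with 10 to 13 of the 13 genes above 0 in all alternatives run. Between the groups the mean mitosis level differed by 0.11, where the SD within groups was 0.22, and the mean replication level by 0.12, where it was 0.12.

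Markers of cell types were measured beside these levels. All 8 epithelial and all 8 neuron markers had a log2 fold change below 0, and all 8 macrophage markers one above 0. The medians were -0.08, -0.80 and 0.75. In that order, 0, 0 and 1 passed the edgeR test (0.0605% of all tested genes). An unadjusted p under 0.05 was reached by 3, 2 and 8 of them (9.54% of all tested genes). DESeq2 called 2, 0 and 8 (1.41% of the genes it tested). Neuron markers also varied among the saline libraries, the highest being 2.99 times the lowest in the median. Red blood cell library 3 had the highest summed level of 8 mesenchyme markers (2968 CPM against 1593 to 2114 CPM in the others), of 8 endothelial markers (1195 against 747 to 971 CPM) and of 8 pericyte markers (752 against 453 to 586 CPM). Each gene of these lists was highest there except Postn, Emcn and Acta2. Postn had 322 CPM there, below the 346 to 379 CPM of the saline libraries, and Emcn was lowest there, at 38.0 CPM. Summed neural progenitor markers were 179 to 302 CPM in the treated pools and 232 to 267 CPM in the saline pools. The highest of these sums was in red blood cell library 3. Nes was high there, at 111 CPM against 48.6 to 73.1 CPM in the others. Pax6, Fabp7 and Emx2 were also highest in that library (17.7, 33.5 and 27.7 CPM). Sox2 was highest in red blood cell library 1, Hes5 in saline library 1, and Eomes and Lhx2 in saline library 2. Summed macrophage markers were 340 to 491 CPM with red blood cells and 220 to 289 CPM with saline, and neuron markers 109 to 176 and 151 to 221 CPM. Summed erythroid markers were 1928 to 2278 CPM with red blood cells and 1864 to 2610 CPM with saline. No list had a gene at 0 in every library. The part of these cells in the levels of the S-phase and mitosis genes was not tested.

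Within the erythroid list, the embryonic globin gene Hbb-y, a transcript of the first wave of red cells, was low in the libraries where the mitosis level was low, an observation made after the values were seen. It had 33.4, 11.3 and 38.6 CPM in treated pools 1 to 3, against 1.33, 31.1, 4.19 and 33.6 CPM in the saline pools by number. Hba-x, the embryonic alpha-type globin gene, had 13.4, 6.05 and 15.03 CPM in the former and 3.10, 12.03, 2.75 and 15.52 CPM in the latter. The libraries with the least of both transcripts, saline 1 and 3, were those with the lowest mitosis levels, and red blood cell library 2 came next in both. Whether the globins and the mitosis genes share a source of variation was not tested.

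Other genes of the same pathways were described from further lists. Among 24 further replication genes, 16 had a log2 fold change above 0 (median 0.06), against 49.9% of all tested genes. Of these 24, 0 passed the edgeR test and 1 had an unadjusted p under 0.05 (0.0605% and 9.54% of all tested genes). DESeq2 called 0, against 1.41% of the genes it tested. The smallest unadjusted p-values were those of the polymerase gene Pola1 (29.9 ± 1.27 against 25.9 ± 1.54 CPM, edgeR adjusted p = 0.521) and of the helicase activation genes Mcm10 (adjusted p = 0.632) and Cdc45 (adjusted p = 0.647). Among 28 further mitosis genes, 27 lay above 0 (median 0.14), against 49.9% of all tested genes. This count was not repeated with libraries left out. In edgeR 0 passed and the unadjusted p was under 0.05 for 1 (0.0605% and 9.54% of all tested genes). DESeq2 called 0, against 1.41% of the genes it tested. Nusap1, a spindle protein gene, had 35.8 ± 4.93 against 29.4 ± 2.75 CPM (edgeR adjusted p = 0.445), followed by the kinetochore gene Nuf2 (adjusted p = 0.595) and the kinesin gene Kif2c (adjusted p = 0.675). The further mitosis genes had levels of 0.04, -0.08 and 0.28 in the red blood cell libraries and -0.22, 0.07, -0.24 and 0.15 in the saline libraries, so saline libraries 1 and 3 were again low and red blood cell library 3 high.

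Among 22 brakes and partners of the cycle, 15 lay above 0 (median 0.10), against 49.9% of all tested genes. In edgeR 0 passed, against 0.0605%. The unadjusted p was under 0.05 for 4, against 9.54% of all tested genes, and DESeq2 called 2, against 1.41% of the genes it tested. Cdkn1c, which encodes the CDK inhibitor p57, had 429, 409 and 406 CPM in the treated pools and 467, 466, 479 and 493 CPM in the saline pools, without overlap (log2 fold change -0.20 ± 0.06, SE, edgeR adjusted p = 0.208, DESeq2 adjusted p = 0.0337). Btg2, an antiproliferative gene, had 26.8 ± 1.68 against 20.7 ± 1.90 CPM, also without overlap (edgeR adjusted p = 0.228). Of the 22 genes, 2 (Btg2 and Rbl1) lay above without overlap and 1 (Cdkn1c) below. Over all tested genes these shares were 4.96% and 4.63%. Cdkn1a, which encodes the CDK inhibitor p21, had 98.7, 129 and 58.7 CPM against 63.2, 45.1, 58.6 and 50.5 CPM (log2 fold change 0.81 ± 0.27, SE, edgeR adjusted p = 0.364, DESeq2 adjusted p = 0.0155). Red blood cell libraries 1 and 2 were high for Cdkn1a, and red blood cell library 3, the one with the highest mitosis level, lay within the saline range.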

How the data were processed

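Poly(A) RNA libraries were made with a directional kit, per the labels' protocols. The authors deposited unnormalised counts for each gene, laid out as featureCounts writes them. Per the submitters' processing notes, the genome build was GRCm39 and the tools were STAR 2.6.1b, cutadapt 2.5 and featureCounts 2.0.6. The settings for strand and multi-mapping are not stated in the sources used, so genes that overlap on the opposite strand or have near-identical copies are uncertain. The authors' exon lengths, another column of the deposited table, served only for levels per kilobase. Of 40879 genes listed, 6 are broken over 2 lines each and were left out; their continuation lines hold 0.107% of counts.

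Counts were tested over all 14869 genes kept by filterByExpr with edgeR 4.0.16 (robust quasi-likelihood F test, two-sided, TMM, no block) under R 4.3.3, with Benjamini-Hochberg adjustment over all genes and a threshold of 0.05. SE and 95% intervals come from the F statistic. Levels per library use log2 CPM with a prior count of 2. Alternatives were DESeq2 1.42.0, limma-voom (limma 3.58.1), other normalizations and filters, a replicate block, libraries left out, and another assignment of roles. The tests were tried on simulated data with known answers, in which genes varied independently. Shifts shared by many genes within a library were not simulated. Precision is limited by 3 and 4 libraries and, for the rarest genes, by counting (Ccne1 had a mean of 44.6 counts per library). All members are named, and of each further list the 3 genes with the smallest unadjusted p where none passed. Rbl1 is named besides these because its groups did not overlap. The members and lists were chosen with earlier results of these data known, and the promoter genes printed were chosen after their motifs were seen. Figures were drawn with matplotlib 3.10.9.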

Additional observations from a re-analysis of the deposited data

Results flagged for a closer look

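Within the 4 saline libraries, 6 of 42 checks (36 genes and 6 levels averaged over lists) found 1 library farther from the others than Dixon's 95% limit allows, where chance flags about 1 group in 20. Ccnd3 was high in saline library 1, at 222.4 CPM. Saline library 3 was the low one for Cdc6 (5.263 CPM), Cdt1 (12.2 CPM) and Tyms (15.31 CPM), and for the replication level averaged over 13 genes (-0.2584 on the log2 scale). These 4 are not independent, since the 3 genes are part of that level. The level of the G1/S regulators was low in saline library 2, at -0.0394.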

How the results depend on the processing

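With 3 and 4 pools only differences well beyond the spread between libraries could pass. No member passed in any of the 16 alternatives. The number of genes called over the table moved from 9 to 280 with DESeq2, 136 without a count filter, 40 without red blood cell library 2 and saline library 4, and 2 with a replicate block. Leaving out 1 library at a time gave 1 to 283 genes, the most without red blood cell library 3 and 1 without saline library 1, 2 or 3. The cause was not tested. Deviations from the group means were correlated between red blood cell and saline libraries. The same-number correlations were -0.01, -0.17 and -0.17, and those of other pairs ran from -0.21 to 0.26. With so few libraries these values cannot show whether replicate numbers pair the libraries. Under the replicate block the median log2 fold change was 0.12 for replication and 0.17 for mitosis genes, a difference of -0.05, with 0 members called.

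Over 36 members and 16 alternatives, 534 of 576 log2 fold changes kept their direction and 42 reversed. Ccnd2 reversed to 0.0006 with DESeq2, 0.0048 without a count filter and 0.0004 with a stricter one, and Cdk1 to 0.0003 with limma-voom. Without red blood cell library 2 and saline library 4, Ccne1 reversed to 0.0906, Cdt1 to 0.0055, Cdk1 to 0.1186, Aurka to 0.0005 and Cdc20 to 0.1607. With the replicate block, Ccne1 reversed to 0.0583, Cdk1 to 0.0443 and Cdc20 to 0.0435.

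Leaving out 1 library at a time, the log2 fold changes that reversed ranged from -0.019 to 0.1377 for Ccnd1, -0.0488 to 0.0482 for Ccnd2, -0.0739 to 0.0358 for Ccnd3, -0.1724 to 0.069 for Ccne1, -0.0796 to 0.2861 for Ccne2, -0.1121 to 0.1889 for Cdc6, -0.0197 to 0.1219 for Gins2 and -0.1047 to 0.0634 for Cdk1. For Mki67 they ranged from -0.0382 to 0.2315, for Top2a from -0.061 to 0.1926, for Bub1b from -0.0346 to 0.2211, for Aurkb from -0.0622 to 0.0872, for Cenpf from -0.0522 to 0.2322, for Kif11 from -0.1867 to 0.1759, for Kif23 from -0.0702 to 0.2103 and for Cdc20 from -0.1554 to 0.0723.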
